A study of Homo sapiens with 6 samples.

Results

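The genes described here build and run the mitotic spindle, attach chromosomes to it and end mitosis. They were chosen as a list of 58 gene symbols, not by a cutoff on measured change, but with earlier results of these data known. A gene was read by the brightest of the probe sets that the platform annotation pairs with that gene and no other. By this rule 56 of the 58 were measured, out of 11963 genes that the array reads in this way, while NUF2 and ANLN were not analysed here. The arrays came from HCT116, an established human colon cancer cell line, stably infected with a lentiviral FUGW vector. In the knockdown cells the vector carried an shRNA against NFX1-91, a splice form of the transcription regulator NFX1 (3 arrays). In the control cells it carried an shRNA against β-galactosidase (3 arrays). Cells of both groups thus carried a vector and a hairpin, the labels name 1 shRNA per group, and expression of the hairpin is given as stable. Nothing in the labels ties the 3 arrays of a group to separate cultures, so p-values cover only the array spread, possibly a technical one. In such bulk RNA, fewer cells in mitosis and less RNA per cell cannot be told apart.

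In mitosis, the Aurora and checkpoint kinases act on a spindle that motor proteins of the kinesin family push and pull into shape. Kinetochores, assembled on the centromeric histone CENPA, hold chromosomes to spindle fibres, and the spindle assembly checkpoint blocks the anaphase-promoting complex, a ubiquitin ligase, until all are held. That ligase then releases separase to part the sister chromatids, and the central spindle directs cytokinesis. Transcripts of many of these genes rise together in G2 and mitosis, and in proliferating epithelium and in colon cancer they are known as a proliferation signature.

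Signals below are scaled to a mean of 500 per array, and changes are log2 fold changes, NFX1-91 shRNA over control, on a log2(signal + 16) scale. A gene counts as called where limma gave an adjusted p under 0.05 (Benjamini-Hochberg, all 11963 genes). Array to array, Pearson correlations were 0.993 to 0.995 within groups and 0.984 to 0.985 between them. The epithelial genes KRT18, KRT8, KRT19 and EPCAM were among the brightest genes of the arrays, while the differentiated intestinal markers VIL1, CDH17, GPA33 and LGALS4 had means below the offset of 16. Of 11 such epithelial markers KRT18 and KRT8 were higher and CDH1 and EPCAM lower, and the list summed to 27904 to 28075 in NFX1-91 shRNA arrays and 23202 to 24079 in control arrays. Of 10 fibroblast, 8 blood cell and 8 embryonic kidney cell markers measured, 0, 1 (HBB) and 0 were called. The blood cell list summed to 145 to 187 in NFX1-91 shRNA arrays and 115 to 156 in control arrays, and the mean of PTPRC, which defines leukocytes, was below the offset in both groups. The part of either list in the results was not tested. NFX1, the gene of the hairpin's target, had signals of 124, 139 and 138 in NFX1-91 shRNA arrays and 159, 144 and 139 in control arrays in its brightest probe set (log2 fold change -0.13, SE 0.095, adjusted p = 0.362; exact two-sided permutation p = 0.2). Over the alternatives this change ran from -0.06 with quantile normalization to -0.27 by the mean of probe sets, where the adjusted p was lowest at 0.0555, and it read -0.08 without control replicate 1 and without NFX1-91 shRNA replicate 1. Of its other probe sets the dimmest was lower (8.87, 8.83 and 4.56 in NFX1-91 shRNA arrays, against 16.8, 17.7 and 24.4 in control arrays, exact permutation p = 0.1, the smallest that 3 against 3 arrays allow), and the splice forms behind these probe sets were not examined.

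Promoters of the genes are shown first, since many genes of mitosis share promoter elements: the cell cycle genes homology region (CHR), which DREAM and MuvB complexes bind, and CCAAT boxes, which NF-Y binds. The search covered 250 bases before to 50 bases after each gene's start in a RefSeq table on GRCh38.p14, in which 48 of the 56 genes were found. The CHR letters TTTGAA stood on either strand in 33 of these 48 promoters (68.8%), against 15.2% of all 35116 promoters of that length. CCAAT stood in 36 (75%, against 34.6%), both motifs in 25 (52.1%, against 5.90%), and the E2F motifs TTTCCCGC or TTTGGCGC in 5 (10.4%, against 2.27%). The 35116 promoters were not limited to genes of the array or to 1 promoter per gene, unlike the 48. Both strands were searched, matches of different motifs were allowed to overlap, and a match is a description only. The CHR letters were found in 6 of 9 promoters of genes that rose, 7 of 9 of genes that fell and 20 of 30 of genes that did not pass the test. In the same order, CCAAT stood in 7, 8 and 21 of these promoters, and the E2F motifs in 0, 3 and 2. No difference between these groups was tested. The 5 promoters printed belong to KIF4A, KIF11, AURKB, CEP55 and CDC20. KIF4A was the kinesin that rose most, KIF11 the kinesin that fell most, and the kinase AURKB fell most of the 56 genes. CEP55 and CDC20 fell and hold the CHR letters more than once. The AURKB window lacks the CHR letters. Only 1 start per gene was searched, so this holds for that window and not for AURKB promoters at other starts. Capitals mark the CHR letters and the CCAAT box on either strand, and each promoter is written 5′ to 3′ on the gene's strand. They lie at chrX:70289854-70290153 (plus strand), chr10:92592880-92593179 (plus), chr17:8210176-8210475 (minus), chr10:93496362-93496661 (plus) and chr1:43358731-43359030 (plus).
KIF4A: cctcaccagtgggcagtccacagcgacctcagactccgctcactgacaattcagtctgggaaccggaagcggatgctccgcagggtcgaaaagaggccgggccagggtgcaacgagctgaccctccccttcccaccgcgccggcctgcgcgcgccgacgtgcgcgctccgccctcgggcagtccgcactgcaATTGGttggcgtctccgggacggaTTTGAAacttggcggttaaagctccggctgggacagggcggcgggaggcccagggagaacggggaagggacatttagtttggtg
KIF11: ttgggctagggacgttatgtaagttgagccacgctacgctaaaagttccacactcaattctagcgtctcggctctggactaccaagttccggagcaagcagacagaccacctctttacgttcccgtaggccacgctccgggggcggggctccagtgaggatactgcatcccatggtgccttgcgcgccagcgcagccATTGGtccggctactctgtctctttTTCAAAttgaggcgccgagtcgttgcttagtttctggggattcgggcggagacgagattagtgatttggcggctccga
AURKB: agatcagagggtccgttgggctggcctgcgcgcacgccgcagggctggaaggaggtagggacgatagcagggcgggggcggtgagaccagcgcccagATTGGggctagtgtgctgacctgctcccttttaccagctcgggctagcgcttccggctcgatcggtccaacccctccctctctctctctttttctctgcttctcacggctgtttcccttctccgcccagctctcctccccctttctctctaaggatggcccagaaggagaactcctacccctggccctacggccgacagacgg
CEP55: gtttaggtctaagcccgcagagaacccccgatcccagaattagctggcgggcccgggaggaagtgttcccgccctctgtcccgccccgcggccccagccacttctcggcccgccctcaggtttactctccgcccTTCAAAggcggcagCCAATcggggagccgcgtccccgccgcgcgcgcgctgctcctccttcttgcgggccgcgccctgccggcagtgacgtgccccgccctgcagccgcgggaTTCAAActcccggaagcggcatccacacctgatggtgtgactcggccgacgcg
CDC20: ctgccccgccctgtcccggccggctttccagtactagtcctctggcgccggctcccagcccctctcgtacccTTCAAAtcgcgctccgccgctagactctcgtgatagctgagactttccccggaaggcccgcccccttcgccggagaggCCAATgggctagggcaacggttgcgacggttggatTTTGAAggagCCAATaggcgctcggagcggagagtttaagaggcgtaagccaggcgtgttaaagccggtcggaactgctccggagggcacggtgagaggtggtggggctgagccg
KIF4A and KIF11 carry 1 CHR match and 1 CCAAT match each in these windows, and their transcripts moved in opposite directions. Both were picked for the size of their changes, and a link of the motifs to direction was not tested.

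The mitotic genes did not move as a block in NFX1-91 shRNA cells. Of 56 genes 11 rose, 12 fell and 33 did not pass the test, and the median log2 fold change was 0.01, beside 0.00 over all genes tested. The 23 called genes make 41.1% of the list. Over all genes 32.5% were called (14.7% higher and 17.8% lower; 2404 and 1740 genes with each array centred on its median), and among the brighter 50% of genes, where all 56 lie, 52.8% were called. The share called in the list was therefore not above that of the brighter 50%. The 56 genes had a median brightness percentile of 87.6, and no share among genes of matched brightness was computed. A change of at least 1.5-fold was reached by KIF4A, which rose, and by AURKB, KIF11, KIF15 and KIF18A, which fell, against 3.05% and 5.79% of all genes higher and lower by that measure. The groups of 3 arrays did not overlap for 29 of 56 genes (14 higher and 15 lower), beside 43.5% of all genes (20.6% higher and 22.9% lower) and 63.6% of the brighter ones. Summed over the 56 genes, the signal was 77766 to 80081 in NFX1-91 shRNA arrays and 75396 to 79800 in control arrays, ranges that overlap. The plot of changes by role shows that each role but the checkpoint and the kinetochore held called genes of both directions.

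**Figure D1:**
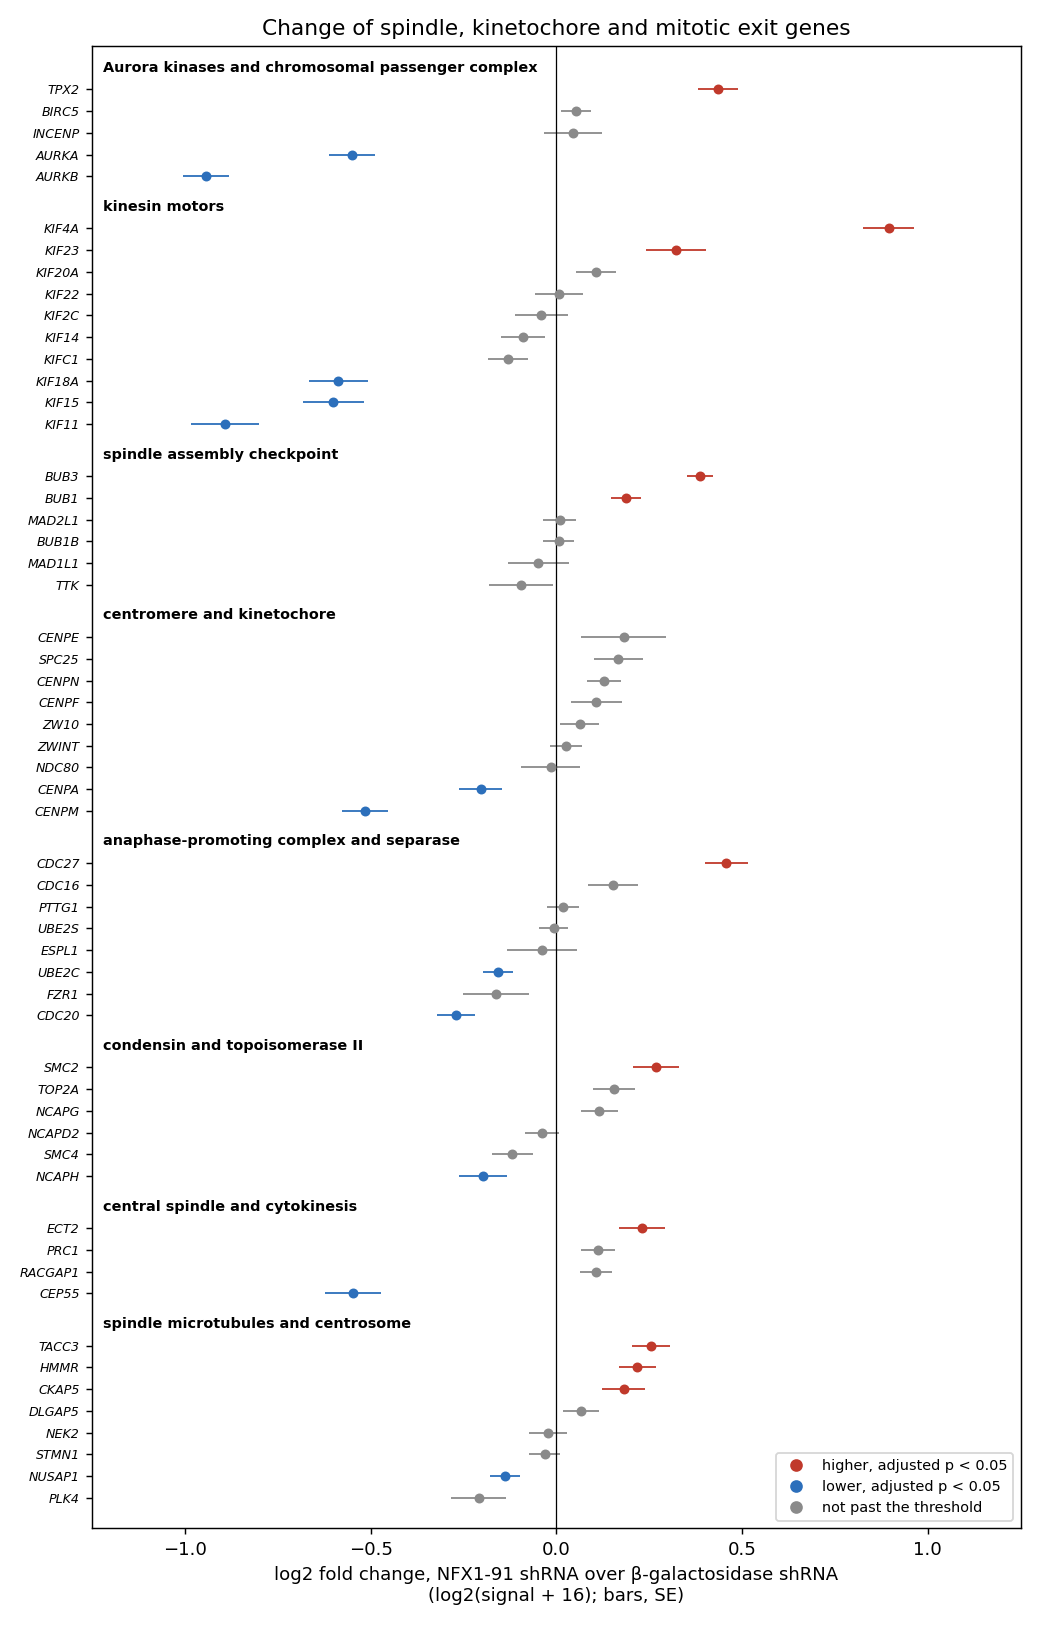
Log2 fold change (NFX1-91 shRNA over β-galactosidase shRNA, horizontal axis, with SE bars) of the 56 measured mitotic genes, grouped by role. Called genes run from AURKB at -0.94 to KIF4A at 0.89, with 11 above 0, 12 below 0 and 33 grey genes that did not pass the threshold.

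How many genes were called depended on the scaling and on which arrays were used. Leaving out control replicate 1 gave 17 higher and 13 lower. Leaving out control replicate 2 gave 8 and 8, and leaving out NFX1-91 shRNA replicate 2 gave 8 and 10. Array weights gave 19 and 13. Centring each array on its median gave 20 higher and 8 lower, and quantile normalization 17 and 10, while the median change of all genes moved to 0.07 and 0.01. Of the 23 called genes, 11 kept call and direction in all 17 alternative fits: AURKB, TPX2, KIF4A, KIF11, KIF15, KIF18A, CENPM, CDC20, CDC27, CEP55 and TACC3.

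Both Aurora kinases fell, and the activator of AURKA rose. AURKB, the catalytic subunit of the chromosomal passenger complex, had signals of 812, 793 and 814 in NFX1-91 shRNA arrays, against 1727, 1489 and 1494 in control arrays (log2 fold change -0.94, SE 0.061, adjusted p = 4.38e-06). The highest of the NFX1-91 shRNA arrays lay far below the lowest control array, and no other of the 56 genes fell as much. AURKA, the kinase of centrosomes and spindle poles, had 868, 983 and 984 in NFX1-91 shRNA arrays and 1464, 1379.7 and 1329 in control arrays (log2 fold change -0.55, SE 0.061, adjusted p = 9.63e-05), again without overlap. TPX2, which carries AURKA to the spindle and switches it on, had 3036, 3139.8 and 2788 in NFX1-91 shRNA arrays, against 2329, 2189 and 2098 in control arrays (log2 fold change 0.43, SE 0.054, adjusted p = 0.000198), so that every NFX1-91 shRNA array was above every control array. The passenger complex partners of AURKB within the list did not pass the test, but CDCA8, a partner outside the list, was higher. Named after its values were seen, CDCA8 had a log2 fold change of 0.19 (adjusted p = 0.0163), without overlap. BIRC5, or survivin, which docks the complex at centromeres, had 3069, 2918 and 2903 in NFX1-91 shRNA arrays and 2951, 2858 and 2755 in control arrays (log2 fold change 0.05, SE 0.040, adjusted p = 0.369), with groups that overlap, and the scaffold INCENP had a change of 0.04 (adjusted p = 0.735).

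Kinesins had the widest spread of any role, with 2 of 10 higher, 3 lower and 5 that did not pass. KIF4A, a chromosome-bound motor that also sets the length of the central spindle, had 817, 903 and 933 in NFX1-91 shRNA arrays, against 490.3, 479.6 and 434 in control arrays (log2 fold change 0.89, SE 0.069, adjusted p = 1.19e-05), the largest rise of the list. KIF23, the motor subunit of centralspindlin, had 490.0, 542 and 604 in NFX1-91 shRNA arrays and 416, 419 and 461 in control arrays (log2 fold change 0.32, SE 0.082, adjusted p = 0.0128). That call was lost without NFX1-91 shRNA replicate 2 and without control replicate 2, with an adjusted p up to 0.0550.

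The kinesins that fell act on the bipolar spindle and on chromosome alignment. KIF11, the motor that pushes the spindle poles apart, had 213, 203 and 235 in NFX1-91 shRNA arrays, against 372, 457 and 421 in control arrays (log2 fold change -0.89, SE 0.091, adjusted p = 5.66e-05). KIF15, which can stand in for KIF11, had 138, 132 and 139 in NFX1-91 shRNA arrays, against 225, 213 and 208 in control arrays (log2 fold change -0.60, SE 0.081, adjusted p = 0.000332). KIF18A, which damps the swings of chromosomes at the metaphase plate, had 443, 512 and 525 in NFX1-91 shRNA arrays, against 683, 771 and 793 in control arrays (log2 fold change -0.59, SE 0.080, adjusted p = 0.000356). In all 3 cases the groups were apart. The microtubule-depolymerising KIF2C had 1158, 1188 and 1116 in NFX1-91 shRNA arrays and 1322, 1068 and 1185 in control arrays (log2 fold change -0.04, adjusted p = 0.732), and its control arrays spanned those of the other group. KIF20A, KIF22, KIF14 and the minus-end motor KIFC1 had log2 fold changes of 0.11, 0.01, -0.09 and -0.13, with adjusted p from 0.0934 to 0.955.

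**Figure D2:**
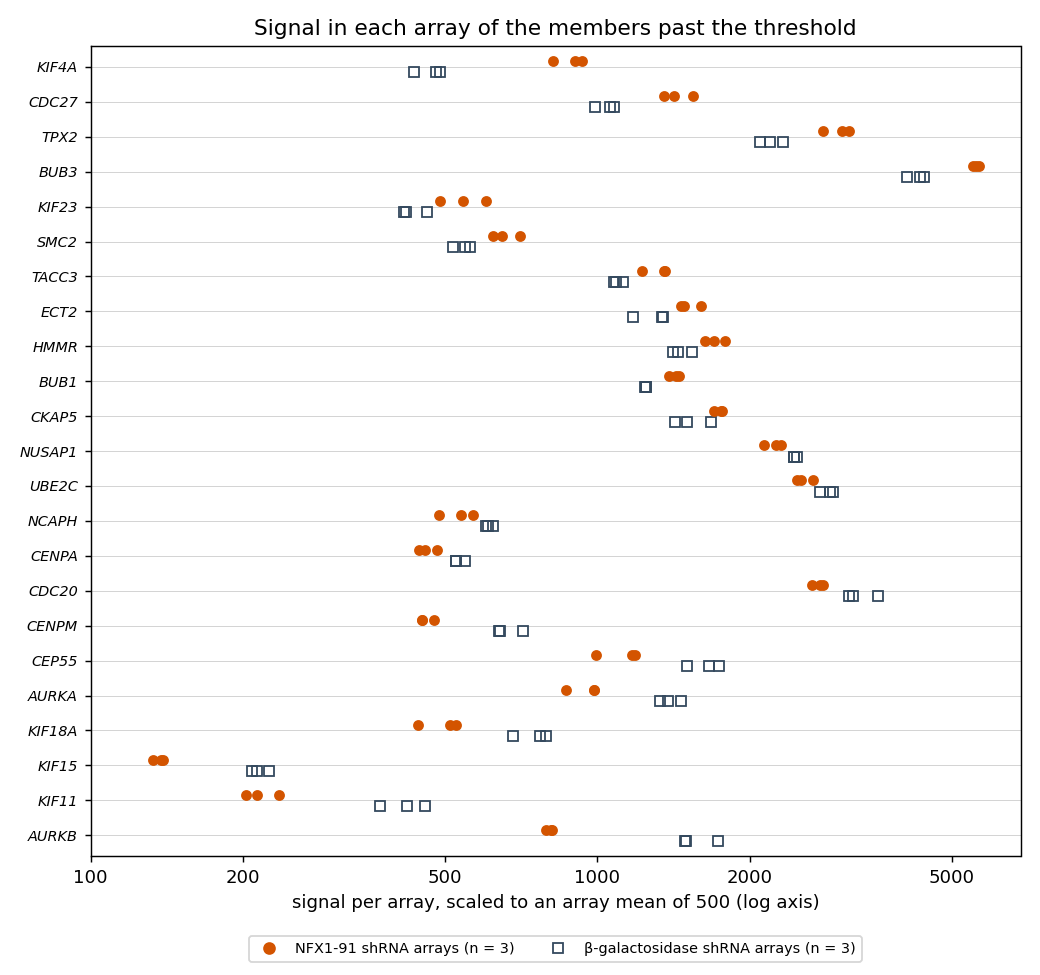
Signal (horizontal log axis, arrays scaled to a mean of 500) of the 23 called genes in each of the 3 NFX1-91 shRNA arrays (filled circles) and the 3 β-galactosidase shRNA arrays (open squares), from the largest rise at the top to the largest fall. For none of the 23 do the groups overlap, and the widest gaps are those of KIF4A, KIF11 and AURKB.

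In the spindle assembly checkpoint 2 of 6 genes rose and 0 fell. BUB3, the adaptor that brings BUB1 and BUB1B to kinetochores, had 5524, 5669 and 5590.4 in NFX1-91 shRNA arrays, against 4411, 4333 and 4089 in control arrays (log2 fold change 0.39, SE 0.036, adjusted p = 3.21e-05). This call rests on the brightest BUB3 probe set, since the mean of its probe sets was not called (adjusted p = 0.992) and another was called lower (-0.30). BUB1, the kinase that marks centromeric chromatin, had 1382, 1451 and 1428 in NFX1-91 shRNA arrays, against 1242, 1248 and 1247 in control arrays (log2 fold change 0.19, SE 0.041, adjusted p = 0.00582). Arrays within a group lay closer together for BUB1 than for any other of the 56 genes (pooled SD 0.025 on the log2 scale), though the mean over its probe sets was not called. MAD2L1, which binds CDC20 to hold anaphase back, had 2926, 2643 and 2753 in NFX1-91 shRNA arrays and 2703, 2796 and 2768 in control arrays (log2 fold change 0.01, adjusted p = 0.918), with overlap. BUB1B, MAD1L1 and the checkpoint kinase TTK had log2 fold changes of 0.01, -0.05 and -0.09 and did not pass.

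At the centromere and kinetochore 2 of 9 measured genes fell and 0 rose. CENPM, a subunit of the constitutive centromere network, had 452, 476 and 451 in NFX1-91 shRNA arrays, against 713, 638 and 641 in control arrays (log2 fold change -0.52, SE 0.062, adjusted p = 0.000163). CENPA, the histone H3 variant that marks centromeres, had 482, 457 and 444 in NFX1-91 shRNA arrays, against 526, 549 and 526 in control arrays (log2 fold change -0.20, SE 0.058, adjusted p = 0.0224). The 2 groups were apart for both genes, but CENPA lost its call in 7 of 17 alternative fits (adjusted p up to 0.127), among them those without NFX1-91 shRNA replicates 2 or 3 and without control replicates 2 or 3. CENPN, which binds CENPA nucleosomes, lay just outside the threshold (log2 fold change 0.13, adjusted p = 0.0567) although its groups did not overlap. CENPN passed as higher in 8 of 17 alternative fits, among them those without NFX1-91 shRNA replicate 3 and without control replicate 1, and SPC25 in 4, among them that without NFX1-91 shRNA replicate 1. ZWINT, a link between kinetochore and checkpoint, had 2739, 2759 and 2633 in NFX1-91 shRNA arrays and 2773, 2695 and 2522 in control arrays (log2 fold change 0.03, adjusted p = 0.718). The microtubule-binding NDC80 and its complex partner SPC25, the kinesin CENPE, CENPF and ZW10 had log2 fold changes of -0.02, 0.17, 0.18, 0.11 and 0.06, none called.

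For mitotic exit, 1 of 8 genes rose and 2 fell. CDC27, a scaffold subunit of the anaphase-promoting complex, had 1418, 1542 and 1353 in NFX1-91 shRNA arrays, against 991, 1058 and 1077 in control arrays (log2 fold change 0.46, SE 0.058, adjusted p = 0.00022). CDC20, the coactivator that the checkpoint holds, had 2754, 2788 and 2658 in NFX1-91 shRNA arrays, against 3575, 3189 and 3143 in control arrays (log2 fold change -0.27, SE 0.051, adjusted p = 0.00257). UBE2C, the enzyme that places the first ubiquitins, had 2522, 2661 and 2480.0 in NFX1-91 shRNA arrays, against 2883, 2913 and 2755 in control arrays (log2 fold change -0.16, SE 0.041, adjusted p = 0.0143). UBE2C was the less firm of the falls, since its call was lost without NFX1-91 shRNA replicate 3, without control replicate 2, with median centring and without a variance trend (adjusted p up to 0.205). UBE2S, which extends the ubiquitin chain and was the brightest gene of the list, had 5329, 5274 and 5140.1 in NFX1-91 shRNA arrays and 5476, 5370.4 and 4985 in control arrays (log2 fold change -0.01, adjusted p = 0.925). Securin PTTG1 and separase ESPL1, which it holds in check, had 0.02 and -0.04, and CDC16 and the late coactivator FZR1 had 0.15 and -0.16, none called.

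In condensin, the ring that compacts mitotic chromosomes, SMC2 rose and NCAPH fell. The ATPase SMC2 had 621, 703 and 647 in NFX1-91 shRNA arrays, against 518, 548 and 561 in control arrays (log2 fold change 0.27, SE 0.063, adjusted p = 0.00861). NCAPH, which closes the ring, had 487, 539 and 568 in NFX1-91 shRNA arrays, against 621, 602 and 609 in control arrays (log2 fold change -0.20, SE 0.065, adjusted p = 0.0421), the fall nearest to the threshold. Neither call was firm. The call of NCAPH was lost in 9 of 17 alternative fits, 5 of which leave out an array (NFX1-91 shRNA replicates 1 or 2, or any control array), with an adjusted p up to 0.112. That of SMC2 was lost without NFX1-91 shRNA replicate 2, by the mean of its probe sets and by the other probe set. NCAPG had 1728, 1875 and 1945 in NFX1-91 shRNA arrays and 1743, 1697 and 1670.3 in control arrays (log2 fold change 0.12, adjusted p = 0.108). NCAPD2, SMC4 and the decatenating enzyme TOP2A had log2 fold changes of -0.04, -0.12 and 0.15 and did not pass. TOP2A passed as higher in 7 of 17 alternative fits, among them those without NFX1-91 shRNA replicate 1 and without control replicate 1.

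Among 4 measured genes of the central spindle and cytokinesis 1 rose and 1 fell. CEP55, which recruits the abscission machinery to the midbody, had 995, 1184 and 1168 in NFX1-91 shRNA arrays, against 1504, 1741 and 1662 in control arrays (log2 fold change -0.55, SE 0.075, adjusted p = 0.000378). ECT2, the exchange factor that turns on RhoA at the cell equator, had 1479, 1459 and 1603 in NFX1-91 shRNA arrays, against 1348, 1176 and 1344 in control arrays (log2 fold change 0.23, SE 0.062, adjusted p = 0.0177). Its call was lost without NFX1-91 shRNA replicate 3, without control replicate 2 and without a variance trend (adjusted p up to 0.0801). RACGAP1, the partner of KIF23, had 2759, 2714 and 2688 in NFX1-91 shRNA arrays and 2673, 2470.0 and 2436 in control arrays (log2 fold change 0.11, adjusted p = 0.086), and the microtubule bundler PRC1 had 0.11 (adjusted p = 0.0912). The groups of both lay apart by a small step, and both passed the threshold under quantile normalization, median centring, array weights and without control replicate 1.

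Of 8 genes of spindle microtubules and centrosomes 3 rose and 1 fell. TACC3, which crosslinks spindle fibres together with CKAP5, had 1357, 1351 and 1227 in NFX1-91 shRNA arrays, against 1078, 1122 and 1087 in control arrays (log2 fold change 0.25, SE 0.051, adjusted p = 0.00373). HMMR, a spindle pole protein that binds TPX2, had 1788, 1697 and 1634 in NFX1-91 shRNA arrays, against 1539, 1443 and 1413 in control arrays (log2 fold change 0.22, SE 0.050, adjusted p = 0.00773). CKAP5, a microtubule polymerase, had 1759, 1758 and 1700.3 in NFX1-91 shRNA arrays, against 1674, 1506 and 1426 in control arrays (log2 fold change 0.18, SE 0.058, adjusted p = 0.0368). The call of HMMR was lost without a variance trend. Of these 3 rises CKAP5 was the nearest to the threshold, and 5 of the 6 fits that leave out an array lost it (all but control replicate 1, adjusted p up to 0.131). NUSAP1, a microtubule bundler near chromosomes, had 2135, 2301 and 2255 in NFX1-91 shRNA arrays, against 2448, 2479.6 and 2439 in control arrays (log2 fold change -0.14, SE 0.039, adjusted p = 0.0225), and lost its call in 6 of 17 alternative fits, 3 of which leave out an array (NFX1-91 shRNA replicate 1, control replicates 2 or 3). DLGAP5, which stabilises spindle fibres, had 1319, 1425 and 1449 in NFX1-91 shRNA arrays and 1373, 1315 and 1315 in control arrays (log2 fold change 0.07, adjusted p = 0.364). The centriole kinase PLK4 lay just outside the threshold at -0.21 (adjusted p = 0.056), and the centrosome kinase NEK2 and the microtubule destabiliser STMN1 had -0.02 and -0.03.

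Other probe sets gave a check of single genes that the counts above do not use. Of the 56 genes 36 had 1 probe set and 20 had several, 91 probe sets in all. Of 7 called genes with several, 3 (AURKA, CDC27 and HMMR) had another probe set called the same way, in a fit over 19064 probe sets that called 27.2% of them. A further CDC27 probe set, nearly as bright as the brightest, was not called (log2 fold change -0.01, adjusted p = 0.908). For BUB3 another was called the opposite way: it had signals of 1074, 1181 and 1182 in NFX1-91 shRNA arrays, against 1340.3, 1485 and 1426 in control arrays (log2 fold change -0.30, adjusted p = 0.00442), and the mean of the 4 BUB3 probe sets had a log2 fold change of -0.00. The rise of BUB3 was called in its brightest probe set only, an x_at set that Affymetrix marks as able to cross-hybridise. CENPA and PTTG1 were each read by 1 probe set, also of the x_at kind. The other SMC2 probe set had a log2 fold change of -0.18 (adjusted p = 0.115), and the other NUSAP1 probe set 0.10 (adjusted p = 0.56). The AURKA probe set that Affymetrix names as unique to the gene was dim and had -0.33 (adjusted p = 0.323), so the call of AURKA was lost without shared probe sets.

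Probe sets of 7 genes that did not pass were called where the brightest was not. FZR1 was read in both directions, lower by a probe set with 76.7, 83.5 and 72.6 in NFX1-91 shRNA arrays, against 114, 99.4 and 100.2 in control arrays (log2 fold change -0.37, adjusted p = 0.0348). A different FZR1 probe set was higher, with 196, 215 and 218 in NFX1-91 shRNA arrays, against 126, 146 and 151 in control arrays (log2 fold change 0.53, adjusted p = 0.00356). No direction can be given for this coactivator. Single further probe sets of BIRC5 (-0.40), CENPF (-0.48) and PLK4 (-0.50) were lower, and those of CDC16 (0.31), SMC4 (0.19) and TOP2A (0.29) higher. The plot of probe sets shows that only FZR1 and BUB3 had probe sets called in both directions. The transcript forms behind these probe sets were not examined.

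**Figure D3:**
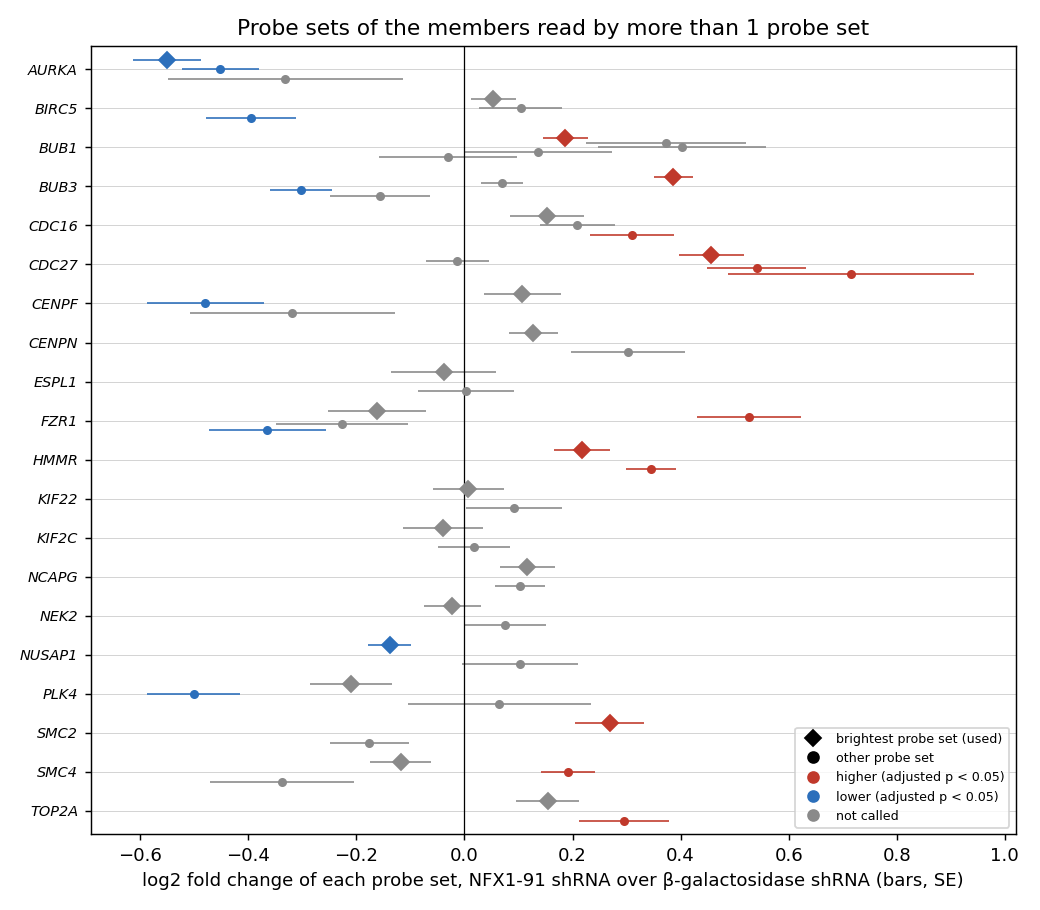
Log2 fold change (NFX1-91 shRNA over β-galactosidase shRNA, with SE bars) of every probe set of the 20 mitotic genes that have several, the brightest as a diamond and the others as circles, coloured by call over all probe sets. BUB3 and FZR1 have both red and blue symbols, and the 3 called CDC27 probe sets lie together on the right.

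Since many of these proteins work as partners, the change of each gene was also set against that of a partner within each array, for 27 pairs. The groups of 3 arrays did not overlap for 18 of the 27 differences, each with an exact two-sided permutation p = 0.1, the smallest that 3 against 3 arrays allow (0.15 adjusted over pairs), so no pair could reach 0.05. The difference in change was -0.998 (SE 0.0542) for AURKB minus BIRC5, -0.99 (SE 0.146) for AURKB minus INCENP and -0.99 (SE 0.087) for AURKA minus TPX2, on the log2 scale. Without shared probe sets AURKB minus BIRC5 read -0.55 and AURKA minus TPX2 read -0.77, so both sizes depend on the probe set chosen. TPX2 minus KIF11 had the widest difference, 1.33 (SE 0.160), and KIF4A minus its binding partner PRC1 had 0.78 (SE 0.074). AURKB minus AURKA had -0.39 (SE 0.075), so the fall of AURKB was the larger.

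Further pairs without overlap were CENPN minus CENPM at 0.64 (SE 0.044), KIF11 minus KIFC1 at -0.76 (SE 0.138) and NCAPG minus NCAPH at 0.31 (SE 0.018). For 9 pairs the groups overlapped. TACC3 minus CKAP5 had 0.07 (SE 0.081), PTTG1 minus ESPL1 0.06 (SE 0.084) and MAD2L1 minus MAD1L1 0.06 (SE 0.075), with groups that overlap. KIF11 minus KIF15, the 2 motors that can replace each other, had -0.29 (SE 0.117), also with overlap. Within condensin SMC2 minus SMC4 had 0.39 (SE 0.107), but this difference read -0.06 without shared probe sets, and SMC2 minus NCAPD2 (0.31, SE 0.049) read -0.14. BUB1 minus BUB3 (-0.20, SE 0.036) read 0.21 by the mean of probe sets.

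**Figure D4:**
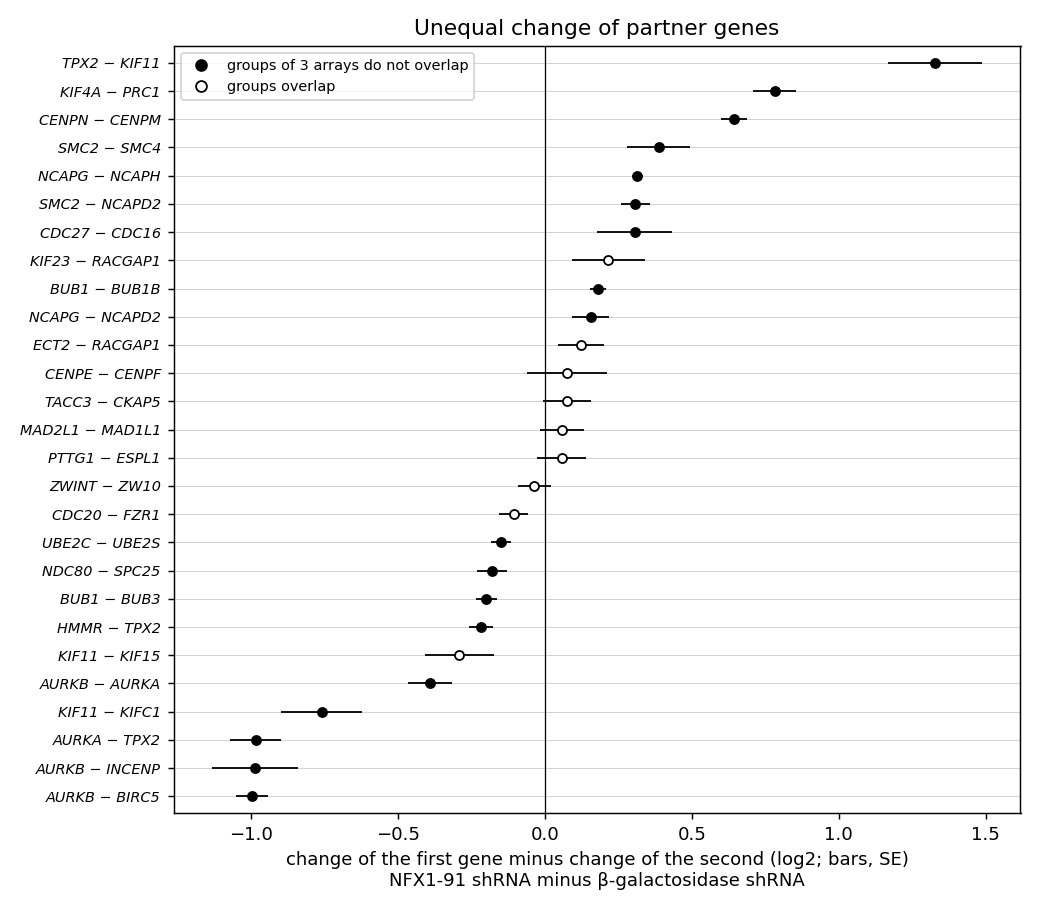
Change of the first gene minus change of the second (log2 scale, NFX1-91 shRNA minus β-galactosidase shRNA, with SE bars) for 27 partner pairs, filled where the 3 arrays of a group do not overlap with those of the other. TPX2 minus KIF11 lies farthest right at 1.33, and the 3 Aurora kinase pairs farthest left, at about -0.99.

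Among factors that control mitotic transcription, some activators and some repressors fell, and the p53 target CDKN1A rose. MYBL2, or B-Myb, which joins MuvB at CHR promoters, had 192, 237 and 227 in NFX1-91 shRNA arrays, against 784, 748 and 737 in control arrays (log2 fold change -1.72, SE 0.080, adjusted p = 7.53e-07). FOXM1, the forkhead factor of G2 and mitosis, had 385, 421 and 432 in NFX1-91 shRNA arrays, against 816, 754 and 716 in control arrays (log2 fold change -0.86, SE 0.069, adjusted p = 1.38e-05). NFYB, a subunit of the CCAAT-binding NF-Y, was lower too, with a change of -0.77 (adjusted p = 4.61e-05). CDKN1A, which encodes the kinase inhibitor p21, had 4651, 4506 and 4373 in NFX1-91 shRNA arrays, against 3340.3, 3110.2 and 3004 in control arrays (log2 fold change 0.52, SE 0.045, adjusted p = 2.2e-05). Named after their values were seen, the repressors RBL2 (-0.79), or p130, and E2F4 (-0.48), both of the DREAM complex, and the MuvB subunit LIN37 (-0.44) also fell, and the E2F partner TFDP1 (0.23) rose. Each of MYBL2, FOXM1 and CDKN1A was read by 1 probe set, and the groups lay far apart. The FOXM1 probe set is an x_at set, as is the brightest of BUB3. Also named after their values were seen, E2F1 (-0.70), RBBP4 (-0.51) and NFYC (-0.37) fell. NFYA, TFDP2, E2F5, RBL1, E2F2 and E2F3 did not pass. Of 17 measured regulators 9 fell, 2 rose and 6 did not pass, with a median log2 fold change of -0.37. For this and the lists that follow, 17.8% of all genes were called lower and 14.7% higher, and 29% and 23.7% of the brighter 50%, and no difference between lists was tested.

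Kinetochore and centromere genes outside the list had 10 lower and 3 higher of 24 measured, with a median of -0.12. CENPB, which binds centromeric satellite DNA, had 117, 113 and 144 in NFX1-91 shRNA arrays, against 364, 312 and 347 in control arrays (log2 fold change -1.35, SE 0.105, adjusted p = 1.21e-05), a larger fall than any of the 56 genes. MIS12 (-0.45), a core kinetochore scaffold, and CENPX (-0.28) were also lower, and CENPQ (0.61) was higher. Of 9 other genes of the anaphase-promoting complex and its regulators 4 fell and 1 rose (median -0.04). FBXO5, or EMI1, which inhibits the complex until mitosis, had 599, 652 and 654 in NFX1-91 shRNA arrays, against 1073, 1128 and 1011 in control arrays (log2 fold change -0.74, SE 0.059, adjusted p = 1.43e-05). The subunits ANAPC5 (-0.32) and ANAPC15 (-0.30) were lower and ANAPC13 (0.35) higher.

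Cohesin and condensin II genes had few calls, with 2 lower and 1 higher of 14 (median -0.04): the cohesin regulator PDS5A (-0.25), the cohesin ATPase SMC3 (-0.15) and the condensin II subunit NCAPG2 (0.14). SMC3 read 0.19 by the mean of its probe sets. Of 31 further spindle and centrosome genes 5 were lower and 5 higher (median -0.05), among them the kinesin KIF18B (-0.83), gamma-tubulin TUBG1 (-0.31) and its ring partner TUBGCP3 (-0.49), which fell, and the depolymerising kinesin KIF2A (0.37), which rose. In cytokinesis 3 of 14 were lower and 6 higher (median 0.11). VPS4A, the ATPase that drives abscission, had 301, 307 and 342 in NFX1-91 shRNA arrays, against 953, 943 and 825 in control arrays (log2 fold change -1.47, SE 0.075, adjusted p = 1.15e-06), and CDC42EP1 (-0.59) fell as well. The kinase ROCK2 (0.85) and SEPTIN11 (0.35) rose.

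Genes of mitotic entry had 9 lower and 5 higher of 18 (median -0.10). CDC25B, the phosphatase that starts CDK1 activation, had 366, 362 and 388 in NFX1-91 shRNA arrays, against 1540.0, 1569.8 and 1523 in control arrays (log2 fold change -2.01, SE 0.050, adjusted p = 2.23e-08). CKS1B (-0.62), a subunit of CDK complexes, PKMYT1 (-0.58), a kinase that holds CDK1 inactive, and ENSA (-0.36), an inhibitor of PP2A, were lower too. Among the 5 that rose, named after their values were seen, were ARPP19 (0.60), the paralogue of ENSA that also inhibits PP2A, the phosphatase CDC25A (0.43) and the mitotic kinase PLK1 (0.34). All medians here stand beside a median of 0.00 over all genes.

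**Figure D5:**
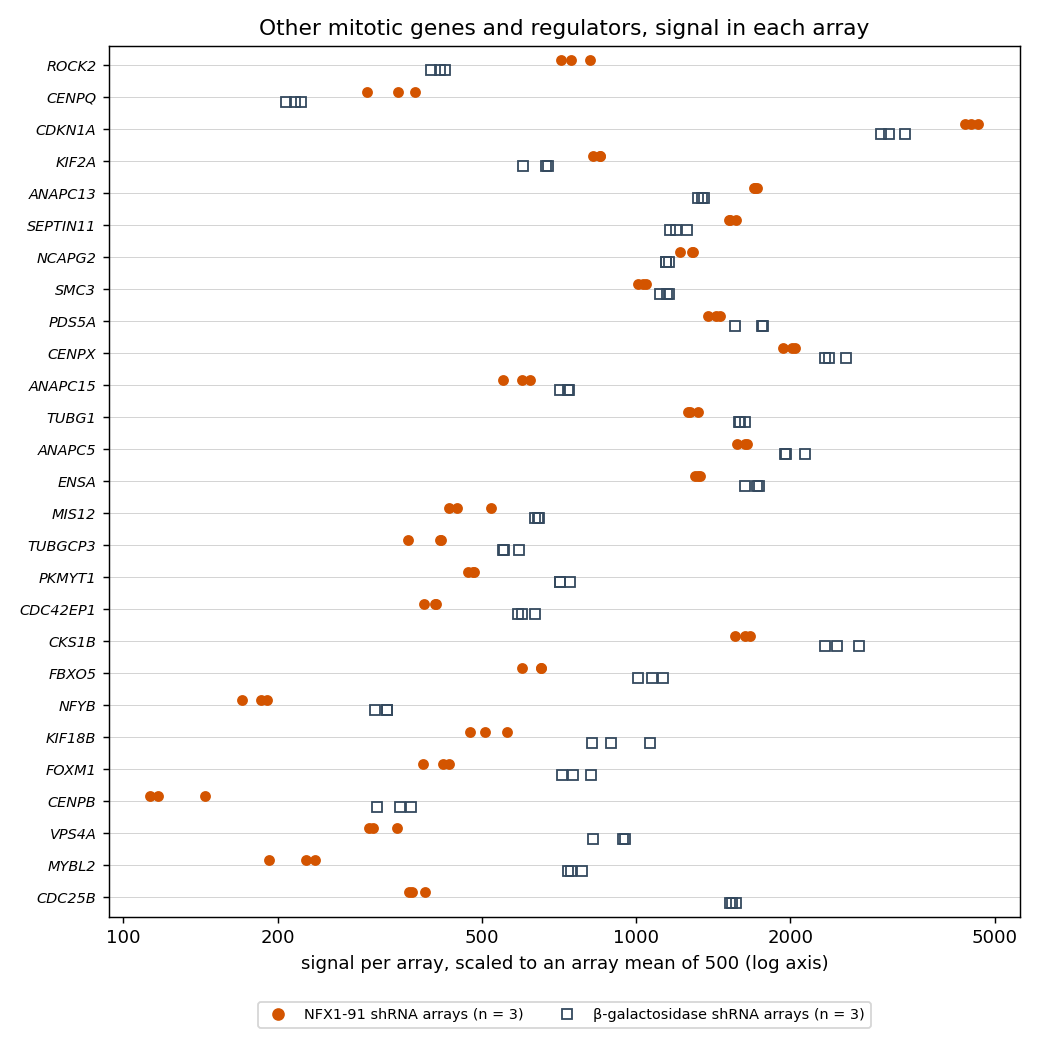
Signal (horizontal log axis, arrays scaled to a mean of 500) of 27 genes of mitosis outside the list, in each of the 3 NFX1-91 shRNA arrays (filled circles) and the 3 β-galactosidase shRNA arrays (open squares), from the largest rise to the largest fall. They are the genes with the smallest adjusted p of each gene list, 7 higher and 20 lower, with CDC25B, MYBL2 and VPS4A at the bottom.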

How the data were processed

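Biotinylated cRNA made from HCT116 total RNA was read on Affymetrix arrays, per the labels' protocols. The deposited intensity values are linear and each of the 6 columns sums to 1; the way probes were summarised is stated nowhere in the labels or headers. Arrays were scaled to a mean of 500 and log2(signal + 16) was taken. Of 22215 probe sets 19064 had 1 gene in the platform annotation, of which 19052 matched RefSeq genes of GRCh38.p14, giving 11963 genes, each read by its brightest probe set. The number of arrays limits the precision.

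The test was limma (version 3.58.1, R 4.3.3, unpaired, with a variance trend, two-sided). On simulated data 86.1% of 2-fold changes were recovered, and the share for smaller changes is not given here. Figures used Python 3.11.15 and matplotlib 3.10.9. The genes, roles, pairs, other lists and naming rule (called genes, the brightest gene not called of each role, the 4 smallest adjusted p of each other list, and NFX1, CDKN1A, FOXM1 and MYBL2) were chosen with earlier results of these data known. Same-numbered arrays did not deviate together (r = -0.03, 0.08 and -0.02), so no pairing was used. The planned protein comparisons were not run, as no protein table was used here. Other settings tried changed the scaling (quantile, median centring), the offset (1 or 64), the variance model (no trend, robust, array weights), the probe sets (mean over a gene, or only unshared ones), the genes (without the dimmest 40%), the arrays (each left out once), the block (replicate number) and the call (0.01, or 1.5-fold as well).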

Additional observations from a re-analysis of the deposited data

Results flagged for a closer look

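Outside the genes compared above, 3151 probe sets that the annotation pairs with several genes or with none held calls as well, 239 with more signal and 271 with less in NFX1-91 shRNA arrays than in control arrays (limma, adjusted p under 0.05 over these probe sets). They stand here because no comparison of genes used them. With 3 arrays per group no array was tested for standing apart within its group.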

How the results depend on the processing

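All genes gave 1762 higher and 2128 lower calls. The stricter threshold of 0.01 left 1136 higher, and with a change of at least 1.5-fold the counts were 365 higher and 693 lower; leaving out 1 array gave 1265 to 1845 higher and 1650 to 2075 lower. Of the mitotic genes 11 were higher and 12 lower. The higher count was 17 with quantile normalization, 20 with median centring and 19 with array weights, and 8 to 17 when 1 array was left out (17 without control replicate 1), with 8 to 13 lower. At 1.5-fold it was 1 higher and 4 lower. The share of higher calls went to 20 of 28 with median centring, against 11 of 23. The replicate number as a block gave 11 higher and 10 lower mitotic genes, with CENPA and NCAPH no longer past the threshold. Of 391 values of the 23 called genes under alternatives 347 kept call and direction, 42 lost the call and 2 changed sign: BUB3 by the mean of probe sets (-0.000947) and SMC2 without shared probe sets (-0.18). BIRC5, not called, read -0.40 without shared probe sets (adjusted p = 0.00427). SMC3 read 0.19 by the mean of probe sets. The differences of the pair BUB1-BUB3 by the mean of probe sets (0.21), and of the pair SMC2-SMC4 (-0.0576) and the pair SMC2-NCAPD2 (-0.14) without shared probe sets, changed sign. The cause of these differences was not tested. Dim genes were not at issue, as all 56 lay in the brighter 50%.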

Other observations

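Replicate arrays agreed closely for the mitotic genes. The pooled SD within groups had a median of 0.073 on the log2 scale, from 0.025 for BUB1 to 0.171 for CENPE, beside 0.119 over all genes and 0.081 over the brighter 50%. The median size of change was 0.145 for the mitotic genes, 0.182 over all genes and 0.211 over the brighter 50%. Replication genes, which peak in S phase, had 12 lower and 1 higher of 23 measured (median -0.19), where 17.8% of all genes were lower and 14.7% higher, and their summed signal was 42474 to 42734 in NFX1-91 shRNA arrays, against 47932 to 49421 in control arrays, without overlap. Across the 56 mitotic genes the change rose with genomic length (Spearman rho 0.227, given as a description), beside 0.132 across 11955 genes; genes of a list share the same arrays.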
